A study of Mus musculus with 28 samples.

Results

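Crhbp encodes the binding protein of corticotropin-releasing hormone (CRH, also called CRF), and its row of the pituitary count table was followed over all 28 mice, as 1 gene of 32594. The gene was chosen by its counts in these same mice, that is by its sex difference, its response to treatment and its spread among females, so its own levels and differences are given as a description, with no test. Whole pituitary glands came from 16 female and 12 male C57BL/6J mice, 8 weeks old, and each library is 1 mouse. Each sex had 4 treatments, which were home cage control, 20 min of restraint (restraint), 12 h of paradoxical sleep deprivation on small platforms over water (PSD), and both in that order (PSD + restraint). All mice, controls included, had been accustomed to the platforms beforehand, and tissue was taken 18 h after the end of PSD and, in restrained mice, 10 min after restraint. Every female group had 4 mice, and the male groups had 4 controls, 2 restrained mice, 3 PSD mice and 3 PSD + restraint mice. Mice were housed by sex, 4 to a cage, and cage, tank and oestrous stage of each mouse were not given in the sources used here, so a cage that held only 1 treatment cannot be told apart from that treatment.

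CRH from the hypothalamus acts on corticotropes through the receptor Crhr1 and so raises the release of ACTH, a product of Pomc. The binding protein holds CRH and urocortin 1 in solution and keeps them from the receptor. In the mouse pituitary its transcript is known from gonadotropes, and it is known to be higher in females and to vary with oestrogen and the oestrous cycle. These statements are background from earlier knowledge of the gene and were not measured here.

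Crhbp lies on chromosome 13 of the mouse genome (GRCm38), between positions 95431371 and 95444924 on the minus strand, with 7 exons in each of its 2 annotated transcripts. No other annotated gene overlaps it. The nearest neighbours in the count table are S100z at 32.3 kb, Aggf1 at 56.0 kb, F2rl1 at 66.8 kb and Zbed3 at 93.5 kb. The sequence just before the first exon is shown because the expression described below spans such a wide range. It covers chr13:95444925-95445081 (GRCm38.p6, minus strand, 157 bases from RefSeq's genome, written 5′ to 3′), and the capitals mark the letters AGGTCA, the element that nuclear receptors such as the oestrogen receptor bind.
Crhbp upstream: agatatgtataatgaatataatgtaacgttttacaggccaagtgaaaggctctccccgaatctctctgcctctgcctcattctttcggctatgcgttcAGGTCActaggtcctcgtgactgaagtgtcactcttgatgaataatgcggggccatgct
A total of 5 sets of letters were searched on both strands of the 300-base window around the RefSeq start, chr13:95444782-95445081. This window runs on from the printed bases into the first exon of the longer transcript. Distances from the RefSeq start are thus not distances from the end of the printed bases. AGGTCA occurred 1 time, 152 bases before the start, and 16.3% of the 32851 RefSeq windows of that length hold it. TGACG, the core of the element bound by CREB, occurred 1 time, 64 bases before the start and outside the printed bases, and 20.8% of windows hold it. GGTCA followed after any 3 bases by TGACC, the full oestrogen response element, which overlaps AGGTCA, and the full element TGACGTCA, which contains TGACG, were not found, as in most windows (0.07% and 1.79% hold them). TATAAA lay 30 bases after the start, and 13.6% of windows hold it. These matches describe letters only.

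Total counts per mouse ranged from 14024465 to 52948531, with a median of 33389717. The pituitary hormone genes Gh, Prl and Pomc took 24.8% to 34.3% of all counts in every mouse. Xist and 4 Y-linked genes matched the labelled sex of every mouse.

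Crhbp was abundant in females and close to the limit of detection in males. In CPM (counts scaled to a common library size with TMM factors), the 16 females ranged from 4.69 to 771 with a median of 106, and the 12 males ranged from 0.0240 to 1.24 with a median of 0.285. The ranges did not overlap, and the lowest female stood 3.79-fold above the highest male. In reads, the females had 83183 Crhbp counts in all and the males 126, with between 1 and 23 in a male.

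Female controls had 84.9, 102.5, 56.8 and 164 CPM of Crhbp in mice 1 to 4. Restrained females had 338, 144, 109 and 771 CPM. PSD females had 22.5, 4.69, 11.3 and 23.6 CPM, and PSD + restraint females had 174, 59.5, 223 and 226 CPM. The 4 PSD females were the lowest females of the study and did not overlap with any other female, the next being a control at 56.8 CPM. The other 3 groups overlapped with one another, and restraint mouse 4 stood far above every other mouse.

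In males, controls had 0.488, 0.111, 0.0355 and 0.0240 CPM of Crhbp in mice 1 to 4. The restrained males, mice 2 and 3, had 0.0344 and 0.254 CPM. PSD males had 0.317, 0.333 and 0.179 CPM, and PSD + restraint males had 0.401, 0.580 and 1.24 CPM. Control mouse 1 was high among the controls and restraint mouse 2 was low, while all 3 PSD + restraint males lay above all 3 PSD males. These values rest on very few reads. For control mouse 4, with 1 count, the exact Poisson 95% interval ran from 0.000608 to 0.134 CPM, and for PSD + restraint mouse 3, with 20 counts, from 0.757 to 1.92 CPM. Such intervals cover counting error only.

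**Figure D1:**
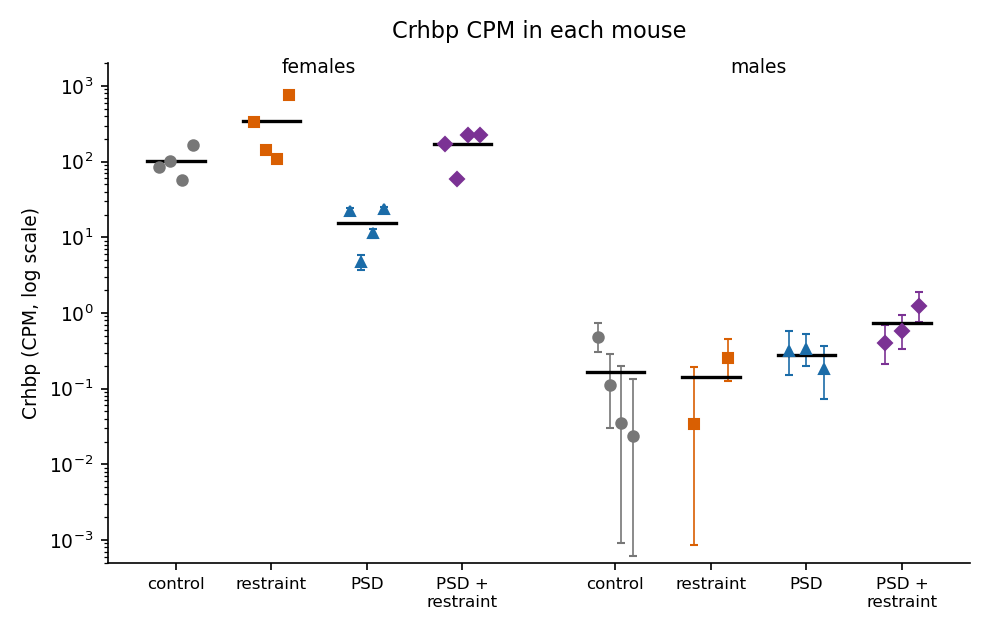
Crhbp in CPM on a log scale in each of the 28 mice, by sex and treatment. Points are mice, thin bars are exact Poisson 95% intervals of the count, and thick lines are group means. The 4 PSD females, between 4.69 and 23.6 CPM, lie below the other 12 females and above all males.

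By group mean, Crhbp ran from 340 ± 304 (SD, n = 4) CPM in restrained females through 171 ± 78.0 (SD, n = 4) CPM in PSD + restraint females to 102.1 ± 45.6 (SD, n = 4) CPM in control females. Neighbours in this part of the order overlapped. PSD females followed at 15.5 ± 9.12 (SD, n = 4) CPM, apart from the controls above and from every male below. In males the order was PSD + restraint at 0.740 ± 0.442 (SD, n = 3), PSD at 0.276 ± 0.0844 (SD, n = 3), control at 0.165 ± 0.219 (SD, n = 4) and restraint at 0.144 ± 0.155 (SD, n = 2) CPM. PSD males overlapped with controls, and controls with restrained males. PSD + restraint males did not overlap with PSD males, but they did with controls. Their lowest mouse, at 0.401 CPM, lay below the highest control, at 0.488 CPM.

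Between the sexes the fitted log2 difference of Crhbp, female minus male, was 8.61 with a standard error of 0.52 (edgeR, all 28 mice). That fit gives 1 value over all treatments, with no term for sex by treatment. By group means the ratio of females to males was 620 in controls, 2361 with restraint, 56.2 with PSD and 230 with PSD + restraint. Only Xist, the RNA that silences an X chromosome in females, had a larger fitted log2 difference toward females among the 18936 genes fitted, at 10.63. The genes next to Crhbp in that order were Cckar, a cholecystokinin receptor, at 7.55, Ucp1, the uncoupling protein of brown fat, at 6.31, and Rxfp1, the relaxin receptor, at 6.17. They were named after their values were seen. Ucp1 varied widely between females of the same treatment, with an SD of log2 CPM within groups of 2.59. Of the neighbouring genes on chromosome 13, F2rl1, Aggf1 and Zbed3 did not share a difference of this size. No value is given here for S100z, the nearest. F2rl1 had a log2 difference of 0.41 (SE 0.05, edgeR, Benjamini-Hochberg adjusted p = 1.14e-06), Aggf1 of 0.18 (SE 0.03) and Zbed3 of 0.12 (SE 0.05).

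The low Crhbp values of males were set beside those of other sex-specific genes in the opposite sex. Xist in males averaged 0.0705% of its female mean and reached 0.182%. The 4 Y-linked genes in females averaged between 0.0106% and 0.0566% of their male means and reached at most 0.216%. Crhbp in males averaged 0.212% of its female mean and reached 0.789%. The number of Crhbp reads per Xist read was 0.00479 to 0.867 in females and 0.125 to 1.40 in males, and 4 males lay above the highest female value. The 3 PSD + restraint males had 1.24, 1.70 and 1.30 CPM of Xist and PSD mouse 1 had 1.74 CPM, whereas the other 8 males had 0.128 to 0.467 CPM. The part of reads from female tissue in the male Crhbp values was not tested.

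After treatment, the fitted log2 differences of Crhbp from female controls were 1.74 (SE 0.59) for restraint, -2.70 (SE 0.63) for PSD and 0.73 (SE 0.58) for PSD + restraint. On a linear scale the PSD females were thus 6.51-fold lower than controls. PSD + restraint females were 10.8-fold higher than PSD females, a log2 difference of 3.43 (SE 0.65), while they stood at -1.01 (SE 0.58) against the females that were restrained without PSD. The fitted interaction of PSD and restraint was 1.69 (SE 0.84) on the log2 scale. The contrast of restrained and control females leaned on restraint mouse 4. Without it the group mean was 197 CPM in place of 340 and the log2 difference 0.95 in place of 1.74. The PSD contrast stayed between -3.00 and -2.37 whichever 1 of the 16 females was left out.

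In males the log2 differences of Crhbp from controls were -0.17 (SE 0.98) for restraint, 0.63 (SE 0.77) for PSD and 1.93 (SE 0.74) for PSD + restraint. Single libraries decided these values. Without control mouse 1, which had 11423 CPM of Pomc against 49603 to 63528 CPM in the other controls, the differences were 1.44, 2.23 and 3.51. Without restraint mouse 3 the restraint difference was -2.27.

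**Figure D2:**
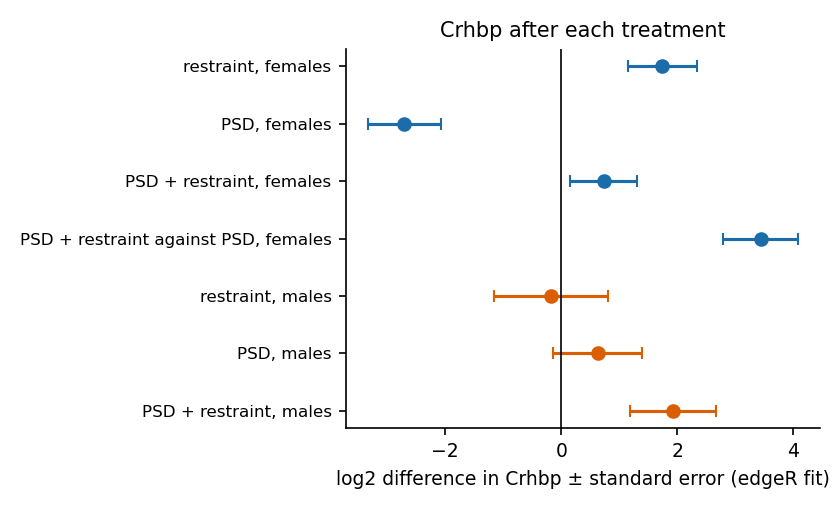
Fitted log2 differences in Crhbp between treatment groups of the same sex, with standard errors. Points right of 0 are higher in the group named first, and groups are set against home cage controls unless named otherwise. PSD females lie at -2.70 and PSD + restraint females at 3.43 above PSD females, while the male errors are wide.

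The PSD females were also among the shallower libraries, with a median of 19130092 counts against 33452322 over all females. Their deepest library, mouse 4 with 42243802 counts, had 23.6 CPM of Crhbp, the highest of the PSD females. The part of depth in these values was not tested. Markers of other cell types were read beside the low Crhbp of PSD females. The 8 gonadotrope genes summed to 2613 to 2878 CPM in PSD females and 3334 to 4664 CPM in the other females, without overlap. Most of this sum is Cga, which thyrotropes express too, with 1914 ± 106 (SD, n = 4) CPM in PSD females and 3253 ± 499 (SD, n = 4) CPM in controls. Other members had higher means in PSD females than in controls, Fshb at 323 against 128 CPM and Gata2 at 25.02 against 15.1 CPM, and neither passed the test. The 4 genes of the melanotrope list summed to 1856 to 4436 CPM against 1247 to 3036 CPM, and the 5 forebrain genes to 13.95 to 66.3 CPM against 9.002 to 48.4 CPM, both with overlap. The 4 lactotrope genes summed to 97109 to 170598 CPM in PSD females and 124578 to 231991 CPM in the other females, also with overlap. The part of these differences in the Crhbp values was not tested, and in whole glands fewer cells of a type cannot be told apart from less RNA per cell.

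Crhbp varied between mice of the same treatment far more than most genes did. The SD of its log2 CPM within female treatment groups was 1.01, against a median of 0.149 over 15440 genes, of which 99.3% had a smaller SD and 111 a larger one. Over all 16 females the SD was 1.90 against a median of 0.167, and 77.6% of that variance lay between the treatment groups. The coefficient of variation within female groups ran from 44.6% in controls and 45.7% in PSD + restraint to 58.7% in PSD and 89.4% in restraint. Crhbp had 86 to 22743 counts in these libraries.

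No other gene of the CRH system had a sex difference of the size seen for Crhbp. The 15 genes of the CRH pathway list comprise 4 ligands, 3 receptors, 4 genes of corticotrope output and 4 of corticosteroid feedback. Between the sexes 13 of them were tested, and 5 were called at an adjusted p of at most 0.05 with at least a 1.25-fold change, all lower in females. Over all genes 14.9% were called, 7.07% higher and 7.84% lower in females. All 3 members called in corticosteroid feedback were lower in females. Fkbp5, a co-chaperone of the glucocorticoid receptor that its ligand induces, differed by -0.93 on the log2 scale (SE 0.07, adjusted p = 1.65e-10), Nr3c2, the mineralocorticoid receptor, by -0.47 (SE 0.07, adjusted p = 9.06e-06) and Nr3c1, the glucocorticoid receptor, by -0.34 (SE 0.08, adjusted p = 0.00126). Nr3c1 missed the fold limit without male control mouse 1, PSD mouse 1 or PSD + restraint mouse 3, at -0.30 to -0.31.

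Of the corticotrope output genes, Pcsk1, the convertase that cuts the Pomc precursor, was lower in females by -0.72 (SE 0.07, adjusted p = 5.79e-09), and Pomc, Pcsk2 and Tbx19 were not called. Among the ligands Ucn2 was called at -1.20 (SE 0.41, adjusted p = 0.0247) at levels of only 0.0829 CPM in females and 0.194 CPM in males. Crh itself was at 0.166 and 0.107 CPM, and Ucn, the gene of urocortin 1, had no count in any female. Crhr1, the receptor whose ligand Crhbp binds, was at 19.7 ± 3.81 (SD, n = 16) CPM in females and 19.3 ± 2.34 (SD, n = 12) CPM in males, with a log2 difference of 0.03 (SE 0.08, adjusted p = 0.789).

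Per kilobase of exon, which allows levels of different genes to be set side by side, Crhbp had 56.7 CPM in control females, 8.63 CPM in PSD females and 0.185 CPM in males. Crhr1 had 7.26, 8.46 and 7.84 CPM per kilobase in the same mice. On this scale the Crhbp level of control females was well above that of the receptor gene, that of PSD females was close to it, and that of males was far below it.

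Few genes of the CRH pathway list passed the test after treatment, in comparisons where few genes of any kind did. In females 0 of 11 tested were called after restraint (0.537% of all genes were), 0 of 11 after PSD (0.0277%) and 1 of 11 after PSD + restraint (2.34%). Over all genes tested, 1756, 3701 and 3742 had an unadjusted p under 0.05 in these comparisons. DESeq2 called 2 of the list after PSD. In males 0 of 12 were called after restraint (0.279%), 0 of 12 after PSD (0.00547%) and 1 of 12 after PSD + restraint (2.54%). Pcsk1 was the member called after PSD + restraint in both sexes, with log2 differences of 0.71 (SE 0.14, adjusted p = 0.0152, edgeR) in females and 0.40 (SE 0.08, adjusted p = 0.0197) in males. The female call was lost without control mouse 4 or PSD + restraint mouse 1, at an adjusted p of 0.0595 and 0.0618. The male call was lost without control mouse 2, 3 or 4 or any 1 of the 3 PSD + restraint mice, at an adjusted p of 0.0508 to 0.0714. Several members had log2 differences as large or larger that did not pass. In PSD females they were 1.14 (SE 0.29, adjusted p = 0.108) for Pomc and 1.06 (SE 0.29, adjusted p = 0.113) for Pcsk2, the convertase of melanotropes. Crhr2, the second CRH receptor, was at 3.14 (SE 0.84, adjusted p = 0.113) there, with 1.26 ± 1.78 (SD, n = 4) CPM against 0.143 ± 0.115 (SD, n = 4) CPM in controls. All 4 corticotrope output genes had positive differences in PSD females, with a median of 0.75. This was not particular to that group, since all 4 were positive in every other treated group of either sex. In females the median was 0.76 with PSD + restraint and 0.32 with restraint alone. Male medians were 0.80 with PSD + restraint, 0.57 with PSD alone and 0.29 with restraint alone. The male differences lean on control mouse 1, with 11423 CPM of Pomc against 49603 to 63528 CPM in the other controls. The restrained males had 39019 and 68226 CPM of Pomc, on both sides of those other controls. Medians without control mouse 1 were not computed, so the male signs may depend on it. In PSD + restraint males Pomc had 1.20 (SE 0.43, adjusted p = 0.168) and Pcsk2 1.19 (SE 0.39, adjusted p = 0.131). The melanotrope list, which also holds Pcsk2, moved the same way. Its female medians were 0.63 with PSD, 0.48 with PSD + restraint and 0.16 with restraint (3 of 4 genes positive). In males they were 0.44, 0.79 and 0.32. In whole glands corticotropes and melanotropes cannot be told apart by these genes.

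**Figure D3:**
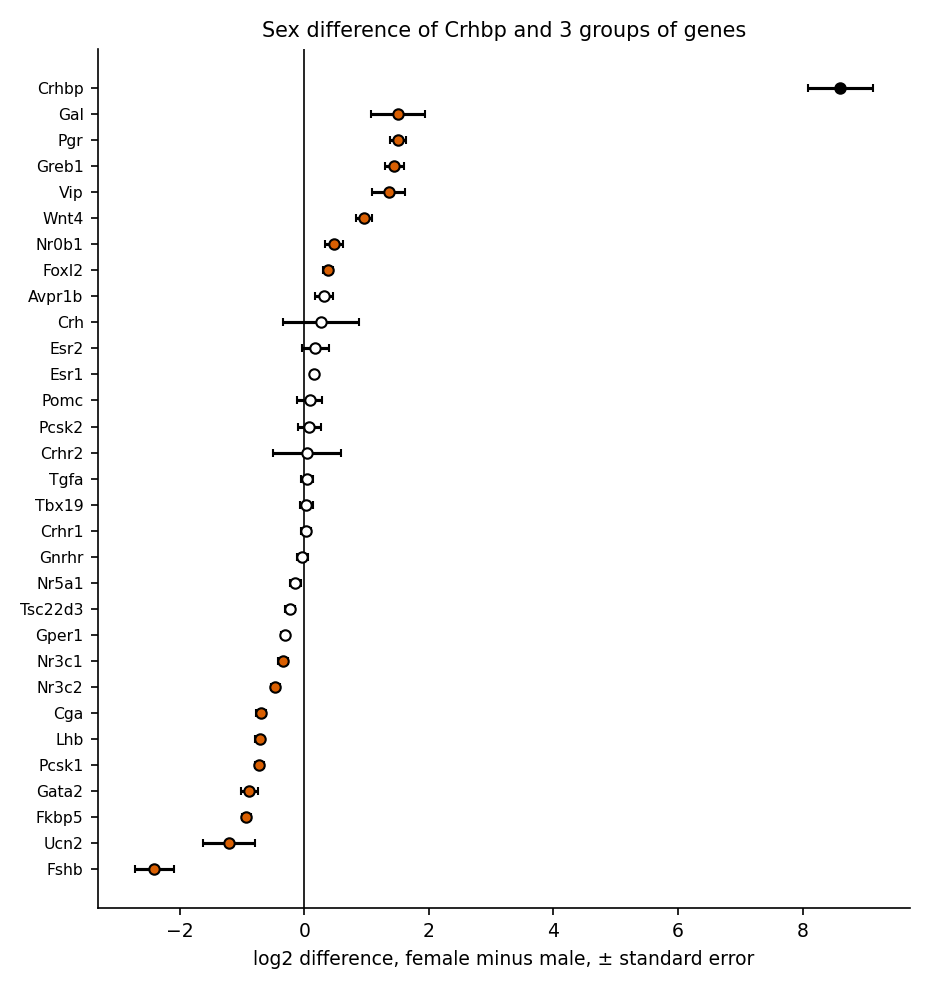
Log2 difference between the sexes (female minus male, edgeR fit over 28 mice) with standard errors for Crhbp and for the tested genes of the CRH pathway, gonadotrope and oestrogen-responsive lists. Filled orange points were called, open points were not, and Crhbp (black) was not tested. Crhbp lies at 8.61 and all other genes between -2.40 and 1.50.

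Genes that follow Crhbp from mouse to mouse were sought in the 16 females with Pearson's r of log2 CPM. The 16 mice share treatment groups, so r carries differences between groups as well as between mice of a group, and r is given as a description with no test. Of 15439 genes, 107 had r of at least 0.8 and 42 had r of at most -0.8, together 0.965%, while the median r was -0.02. The 10 that followed most closely were Rbm3, Rbm20, Larp7, Fam220a, Eprs, Ednra, Creb3l1, Nfkbia, AK086793 and Gng4, with r from 0.89 to 0.95. The 5 that ran most strongly against it were 2900052L18Rik_, Snx13, Cmpk2, Esrrg and Fhl4, with r from -0.92 to -0.88.

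Rbm3, an RNA-binding protein known to be induced by cold, had the closest pattern (r = 0.95, Spearman's rho 0.92). Its range was narrow beside that of Crhbp. Rbm3 had 57.3, 62.5, 57.4 and 63.2 CPM in control females, 72.3, 65.1, 60.8 and 79.5 in restrained females, 52.5, 46.2, 48.0 and 51.7 in PSD females and 71.3, 53.7, 60.2 and 65.1 in PSD + restraint females. Restraint mouse 4 was highest and PSD mouse 2 lowest for Rbm3, as for Crhbp.

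Creb3l1, a transcription factor anchored in the endoplasmic reticulum, had the widest range of the followers (r = 0.91, rho 0.94). It stood at 39.1, 61.1, 22.4 and 93.6 CPM in control females and at 104.2, 48.1, 40.9 and 152 in restrained females. PSD females had 23.9, 19.7, 21.0 and 27.1 CPM of Creb3l1, and PSD + restraint females had 84.7, 33.5, 84.1 and 56.6. The PSD group was low throughout, and control mouse 3, the lowest control for Crhbp, fell within it.

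The remaining followers covered several functions. Rbm20 is a splicing factor, Eprs a transfer RNA synthetase, Larp7 a binding protein of a small nuclear RNA, Ednra an endothelin receptor, Nfkbia the inhibitor of NF-kB and Gng4 a subunit of G proteins. Esrrg, an orphan nuclear receptor, ran against Crhbp (r = -0.89, rho -0.93), with 6.83 to 11.5 CPM in females.

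**Figure D4:**
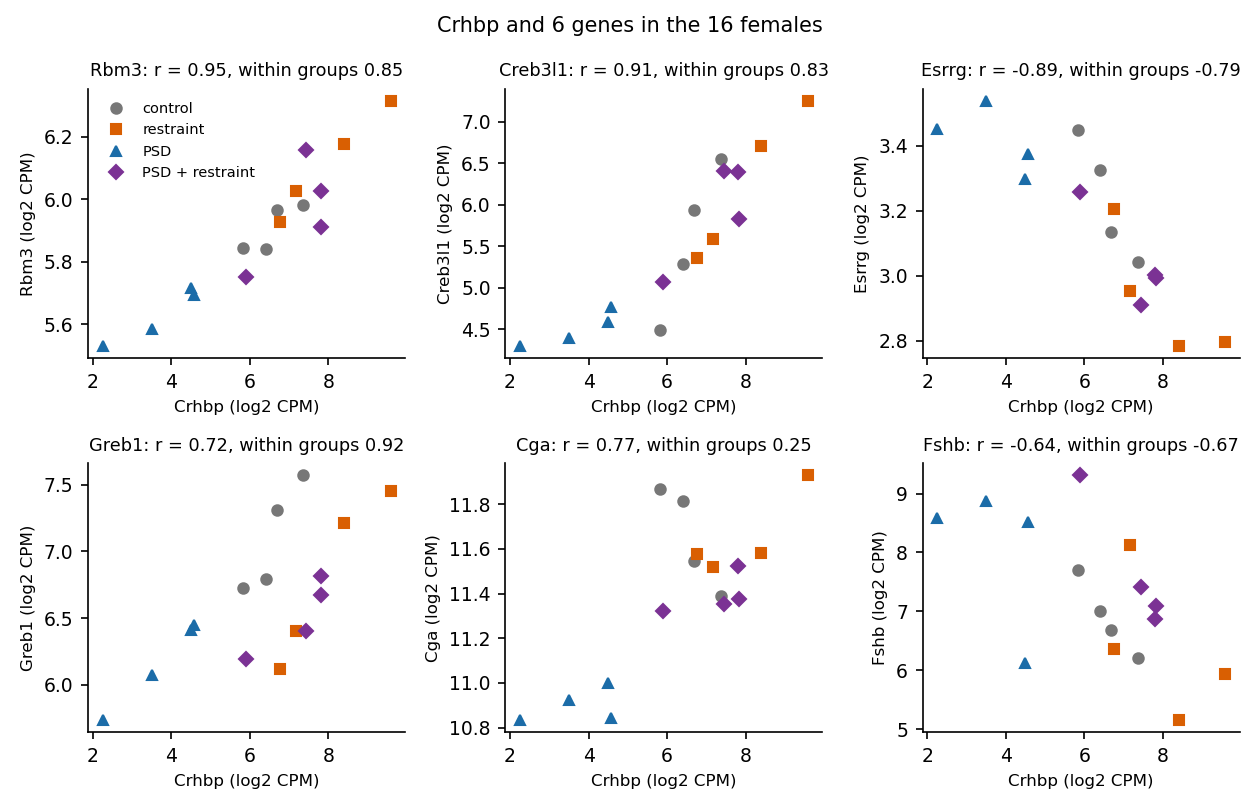
Log2 CPM of Crhbp (horizontal axes) against 6 genes (vertical axes) in the 16 females, coloured by treatment, with r over all 16 females and r of the deviations from treatment group means. Rbm3 and Creb3l1 follow Crhbp over its whole range and Esrrg runs against it, whereas Cga separates the PSD group but has r = 0.25 within groups.

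The size of this group of genes depended on which mice were in it. On deviations from the treatment group means, 72 genes had r of at least 0.8 and 13 of at most -0.8. The 16 genes at 0.8 or above on both scales were 15.0% of the 107 and 22.2% of the 72, and no gene was at -0.8 or below on both. Without the PSD group the count fell from 149 to 60, without the control group it was 541, and without the PSD + restraint group it was 611. Leaving out restraint mouse 4 gave 89 genes and leaving out restraint mouse 3 gave 227. Of the 10 genes that ran with Crhbp, Rbm3, Rbm20, Fam220a, Eprs and Creb3l1 had r above 0.8 without the PSD group as well, and Ednra had the lowest value there, at 0.68.

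Within treatment groups the genes closest to Crhbp were Chml, a Rab escort protein, at r = 0.92 and Greb1, a gene known to be induced by oestrogen, at r = 0.92, followed by Prkce, a protein kinase C, at 0.92 and Shc2, an adaptor protein, at 0.91. Chml, Prkce and Shc2 were named after their values were seen. Chml had 25.2 ± 8.94 (SD, n = 16) CPM in females and 5.18 ± 0.814 (SD, n = 12) CPM in males. Rxfp1, which also stood high in the order of sex differences, had r = 0.71 over all females and 0.87 within groups.

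Of the 9 oestrogen receptors and responsive genes, 8 were expressed highly enough for r, and 7 of these were positive, with a median of 0.53 against -0.02 over all genes. Within groups the median was 0.41. The list was not alone in this, since the 4 immune genes had medians of 0.37 over all females and 0.48 within groups. Greb1 had 111, 159, 106 and 190 CPM in control females, 148, 84.6, 69.3 and 175 in restrained females, 85.0, 53.2, 67.2 and 87.1 in PSD females and 84.7, 73.1, 113 and 101.9 in PSD + restraint females. In the control, restraint and PSD groups the mouse with the most Crhbp, mouse 4, also had the most Greb1, and in PSD + restraint mouse 3 had the most Greb1 and mouse 4 the most Crhbp. Pgr, the progesterone receptor, had r = 0.66 (0.81 within groups), Esr1, the main oestrogen receptor, 0.59 (0.40) and the peptide genes Vip and Gal 0.55 and 0.51. Gper1, a membrane oestrogen receptor, had 0.19 (-0.62 within groups), Wnt4 0.15 (-0.09) and Tgfa -0.25 (0.15). Without the PSD group r was 0.51 for Greb1, 0.50 for Pgr, 0.47 for Vip, 0.40 for Gal and 0.14 for Esr1. It was 0.20 for Tgfa, 0.05 for Gper1 and -0.002 for Wnt4 there.

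Between the sexes 5 of the 9 genes of this list were called higher in females and 0 were called lower, where 7.07% and 7.84% of all genes were. Gper1 was lower in females by -0.30 on the log2 scale (SE 0.06, adjusted p = 0.000439) but missed the limit of 1.25-fold. Pgr differed by 1.50 on the log2 scale (SE 0.13, adjusted p = 4.13e-10), Greb1 by 1.45 (SE 0.15, adjusted p = 1.22e-08), Gal by 1.50 (SE 0.43, adjusted p = 0.00754), Vip by 1.36 (SE 0.26) and Wnt4 by 0.96 (SE 0.13). In PSD females the log2 differences from controls were -0.96 (SE 0.27, adjusted p = 0.123) for Greb1, -0.75 (SE 0.24, adjusted p = 0.130) for Pgr and -2.01 (SE 0.72, adjusted p = 0.150) for Gal, and none of the list was called. Gper1 was called after PSD + restraint in females at 0.50 (SE 0.13, adjusted p = 0.0492) and in males at 0.69 (SE 0.08, adjusted p = 0.00123). The female call was lost in 9 of 16 omissions of 1 mouse, which were control mice 2, 3 and 4, restraint mouse 1, PSD mice 3 and 4 and PSD + restraint mice 1, 2 and 3.

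The gonadotrope genes did not follow Crhbp as 1 group. Their median r was 0.32 with 5 of 8 positive, and within treatment groups it was -0.06. Lhb and Cga, which encode the subunits of luteinising hormone, had r = 0.77 each, and Nr5a1, a gonadotrope transcription factor, had 0.69. Within groups these were 0.28, 0.25 and 0.04. Fshb, the specific subunit of follicle-stimulating hormone, had r = -0.64 over all females and -0.67 within groups, and Gata2, another gonadotrope transcription factor, had -0.52 and -0.79.

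Cga had 3600, 2993, 3736 and 2681 CPM in control females, 3062, 2938, 3054 and 3899 in restrained females, 2051, 1825, 1944 and 1836 in PSD females and 2618, 2564, 2948 and 2659 in PSD + restraint females. The PSD females were again below all others. Cga was the 1 gonadotrope gene of 8 called after PSD in females, where 0.0277% of all genes were called, with a log2 difference of -0.77 (SE 0.11, adjusted p = 0.0186), and the call was lost without control mouse 1 or 3 or PSD mouse 2 or 3 (adjusted p 0.0508 to 0.132). Lhb had a difference of -0.50 (SE 0.12, adjusted p = 0.102) and Fshb of 1.32 (SE 0.68, adjusted p = 0.279). Between the sexes 2 of the 8 gonadotrope genes were called higher in females (7.07% of all genes were) and 4 were called lower (7.84%), Fshb by -2.40 (SE 0.31, adjusted p = 8.14e-07), Gata2 by -0.88 (SE 0.13), Lhb by -0.72 (SE 0.07) and Cga by -0.69 (SE 0.08). Foxl2 at 0.38 (SE 0.08) and Nr0b1 at 0.47 (SE 0.14) were the members called higher in females.

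Of the 6 activin and follistatin genes, 4 had a value of r, with a median of -0.41, and Acvr2a, an activin receptor, was lowest at -0.77. Inhba and Inhbb, the activin subunits, were lower in females by -1.04 (SE 0.19) and -0.51 (SE 0.06) on the log2 scale, and the other 4 genes were not called. The corticotrope output genes had a median r of -0.35 with Crhbp and the melanotrope genes of -0.53, with Pomc at -0.58 and Pcsk2 at -0.55. Without the PSD group these were -0.11 and -0.09. Crhr1 had r = -0.26. The 4 lactotrope genes had a median r of 0.10 (-0.19 within groups). Among them Prl, the prolactin gene, had 0.64 (0.54 within groups, 0.14 without the PSD group) and Drd2 had -0.58 (-0.61 within groups).

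**Figure D5:**
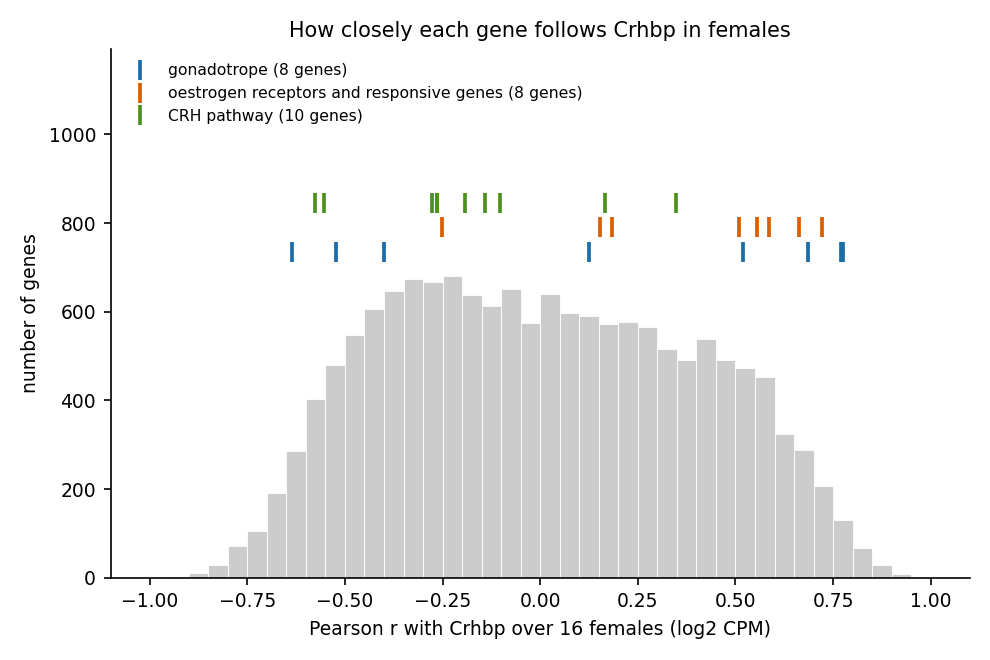
Number of genes (vertical axis) by Pearson's r with Crhbp over the 16 females (horizontal axis) for 15439 genes, with ticks above the bars for the members of 3 lists that had a value. The oestrogen-responsive genes lie mostly to the right, with a median of 0.53, the gonadotrope genes fall on both sides, and the genes of the CRH pathway lie mostly left of 0.

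The male libraries took no part in choosing the followers, so their response in males was tested. Their difference between the sexes was fitted as well, but its female side is the same 16 libraries that chose them, so it is not independent of the choice. Between the sexes 3 of the 15 were called, all higher in females and all among those that ran with Crhbp. Creb3l1 differed by 1.86 on the log2 scale (SE 0.26, adjusted p = 2.44e-06), Ednra by 0.59 (SE 0.08, adjusted p = 1.18e-06) and Nfkbia by 0.50 (SE 0.09, adjusted p = 0.000159). The share of 3 in 15 stands beside 14.9% of all genes called in either direction and 7.07% called higher in females. Rbm3, the closest follower, was at 60.4 ± 9.09 (SD, n = 16) CPM in females and 63.3 ± 4.74 (SD, n = 12) CPM in males, with a log2 difference of -0.09 (SE 0.06, adjusted p = 0.203).

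In males 0 of the 15 followers were called with restraint alone, 0 with PSD alone and 3 with PSD + restraint, where 2.54% of all genes were. Over all genes 922 and 1618 had an unadjusted p under 0.05 after restraint and PSD in edgeR, and DESeq2 called 1 follower after restraint. Fam220a differed by 0.45 (SE 0.10, adjusted p = 0.0297), Nfkbia by 0.47 (SE 0.11, adjusted p = 0.0429) and Fhl4 by -0.78 (SE 0.18, adjusted p = 0.0392), and the signs match their sides in females. All 3 calls rested on single mice. That of Fam220a was lost without control mouse 2, 3 or 4 or any PSD + restraint mouse, and those of Nfkbia and Fhl4 in 9 of 12 omissions each. Nfkbia kept its call without PSD mouse 1 or 2 or PSD + restraint mouse 1, and Fhl4 without PSD mouse 2 or either restrained mouse. The male values of the followers were also correlated with one another. Among pairs of genes that ran with Crhbp in females the median r over the 12 males was 0.35 (37 of 45 positive), against 0.88 in females, and between the genes of opposite sides it was -0.26 (14 of 50 positive). Differences between treatment groups enter these r. The same values were not computed over all pairs of genes, so whether they are particular to the followers was not tested.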

How the data were processed

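RNA of whole pituitaries from 28 mice was sequenced in paired-end reads. Per the methods of the study, the authors mapped them to mm10 (MapSplice) and assigned them to UCSC genes by HTSeq 0.9.1 in its intersection-nonempty mode. The deposited table holds these raw counts. The strand setting of the counting was not given in the sources used here. A second deposited table, of normalized counts, was not used. Groups came from the sample labels.

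CPM were scaled with TMM factors from all genes, with a prior count of 2 on the log2 scale. Crhbp, the gene lists and the followers were chosen with earlier results of these data known. Genes kept by filterByExpr were tested with the quasi-likelihood test of edgeR 4.0.16 (R 4.3.3, limma 3.58.1), with Benjamini-Hochberg adjustment over all genes tested. The model held PSD, restraint and their interaction within each sex, and sex as a further term over all mice. A gene was called at an adjusted p of at most 0.05 and a change of at least 1.25-fold. The rule of the study on mean TPM was replaced by filterByExpr, since the table holds counts. Pearson's r with Crhbp used genes with a mean of at least 1 CPM in females. The named genes were the members of the lists, the 10 genes with the highest and the 5 with the lowest r, the neighbours of Crhbp and the sex-linked genes. Positions are from GENCODE M21 and the upstream sequence and windows from RefSeq.

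The tests were tested on simulated data. Alternatives were DESeq2 1.42.0 as test or for size factors, library size alone, no filter on low counts, a replicate block, Spearman's rho, a prior count of 0.5, deviations from group means and each mouse left out. Leaving out a whole female group was chosen after seeing the data. All 37 pairs of mice within a group varied beyond counting error, with a chi-square of at least 7.48 for each degree of freedom. Depth per mouse was 14024465 to 52948531 counts, so that 3 counts correspond to 0.0526 to 0.224 CPM.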

Additional observations from a re-analysis of the deposited data

Results flagged for a closer look

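The response of Crhbp to PSD lay on opposite sides of the control mean in the 2 sexes. All 4 PSD females were below the mean of the female controls, with a group mean 0.152 times that of controls, and all 3 PSD males were above the mean of the male controls, at 1.68 times. This difference between the sexes was not tested, since Crhbp was chosen for its values, and the male values rest on 7 to 19 counts each. Rbm3 showed the same arrangement, at 0.825 times the control mean in females and 1.09 times in males, also untested. It was chosen for its r with Crhbp over the same females. Its female side therefore follows from that choice and is no second observation.

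Among 45 groups of 4 mice checked over 9 genes, 2 had a mouse far from the others, where chance gives about 1 in 20. The 2 in 45 are thus no more than chance gives. Restraint female 4 had 3899 CPM of Cga, the highest of its group, and it was also the mouse with the most Crhbp. PSD + restraint female 2 had 633 CPM of Fshb, the highest of its group, and it was the mouse with the least Crhbp in that group. Over these same females Cga had r = 0.77 and Fshb r = -0.64 with Crhbp, so neither match is a separate observation.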

How the results depend on the processing

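Over all genes, replicate numbers of the labels gave little sign of pairing mice (r of same-numbered deviations over 0.1 in 2 of 24 female and 2 of 15 male pairs). In females this r ran from -0.35 to 0.33, both ends at number 4. For Crhbp, mouse 4 was the highest of each of the 4 female groups. Whether mice of that number share anything was not tested. With a replicate block, the CRH pathway genes called after PSD + restraint in males went from 1 to 0 and the followers called there from 3 to 0. With DESeq2 as the test, 2 CRH pathway genes were called after PSD in females and 1 follower after restraint in males, against 0 each. Genes that follow Crhbp numbered 149, and 85 on deviations from group means, 410 on such deviations without the PSD group, 541 without the control group, 60 without the PSD group and 611 without the PSD + restraint group, the last 4 chosen after seeing the data. The causes were not tested.

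With 1 mouse left out, the genes that follow Crhbp numbered 89 to 227. CRH pathway genes called ranged from 0 to 2 after PSD + restraint in each sex, 0 to 3 after PSD in females, 0 to 1 after PSD in males and 0 to 1 after restraint in females, and followers called after PSD + restraint in males from 0 to 3. The log2 difference of Crhbp in males ranged from -2.27 to 1.44 after restraint, 0.25 to 2.23 after PSD and 1.41 to 3.51 after PSD + restraint. In females no alternative reversed a Crhbp difference. Male groups had 2 to 4 mice with at most 23 Crhbp counts each, and standard errors of 0.74 to 0.98 on the log2 scale.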
